A study of Sus scrofa with 12 samples.

Results

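Expression of the proteasome genes was compared between the hypothalamus of germ-free (GF) pigs and that of pigs colonized with gut microbiota (CG). The members were all mRNA genes whose name in the deposited sheet begins with PSMA, PSMB, PSMC, PSMD, PSME, PSMF or PSMG and a digit. This rule gave 43 of the 19256 mRNA genes, with 128 of the 47559 transcripts, and it used no measured value. Of the 43 names, 41 belong to proteasome subunits, their activators, their inhibitor and their assembly chaperones, while PSMC3IP and PSME3IP1 only bind proteasome proteins and are listed apart. Levels are in TPM, a read share corrected for transcript length and scaled to the same total in each library, and the TPM of all transcripts of a gene were added up.

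The proteasome is the protease that breaks down proteins tagged with ubiquitin, and in neurons it takes part in the turnover of synaptic proteins. Its barrel, the 20S core, has outer rings of PSMA proteins and inner rings of PSMB proteins, among which PSMB5, PSMB6 and PSMB7 cut the substrate. In immune cells and under interferon, PSMB8, PSMB9 and PSMB10 take the place of these and form the immunoproteasome. The 19S cap binds ubiquitin chains and unfolds the substrate with a ring of PSMC ATPases on which the PSMD proteins sit. The roles given here are those known from human and yeast proteins.

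All pigs were delivered germ-free by hysterectomy from 1 Bama sow and raised in sterile isolators on sterile feed. GF pigs stayed without gut microbiota, and CG pigs received fecal microbiota of 1 donor pig on days 3 to 7 of life. The labels give 45 days of age and male sex for every pig, while the methods of the study give a slightly younger age, and a part of each hypothalamus was sequenced. Long RNA libraries of 3 GF and 3 CG pigs were used, out of 12 libraries in the series. Pigs of 1 group shared isolators, so isolator and group cannot be told apart, and p-values measure the spread between these libraries.

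Some libraries went against their labels or stood apart. The Y-linked genes ZFY and KDM5D together stood at 0.01 to 0.03 TPM in GF libraries, against 17.2, 19.5 and 0.04 TPM in CG replicates 1, 2 and 3. The 10 hypothalamic markers added up to 0.63 TPM in GF replicate 1, 978 to 1069 TPM in the other GF pigs and 921 to 2340 TPM in CG libraries, and 7 of the 10 fell in GF pigs. Outside GF replicate 1 these sums were mostly OXT, at 869.5 and 1005.5 TPM in the other GF pigs and 582 to 1836 TPM in CG libraries. NKX2-1 stood at 0.10 to 5.49 TPM in GF libraries, against 35.4 to 40.0 TPM in CG libraries. AGRP and BSX stood at 0 to 0.28 TPM in all GF libraries. The thalamic markers added up to 478, 104 and 349 TPM in GF replicates 1, 2 and 3 and to 101 to 108 TPM in CG libraries, and the pituitary markers to 2.31 to 12.2 TPM in GF pigs, 5345 TPM in CG replicate 3 and 16.0 to 244 TPM in the other CG pigs. The red blood cell markers added up to 426 to 1196 TPM in the GF group, against 9.77 to 19.5 TPM in the CG group, mostly from HBB. Of the other marker lists, the myelin gene MBP rose (1435 to 3032 TPM in GF libraries, against 234 to 243 TPM in CG libraries), as did the choroid plexus genes TTR (43.9 to 200.2 TPM, against 5.72 to 9.28 TPM) and CLIC6 and the neurofilament gene NEFL, while the T cell gene CD3G fell. The part of these differences in the proteasome values was not tested, and counts with libraries left out are given beside the results. NKX2-1, AGRP, BSX, HBB and MBP differed between all GF and all CG libraries, so leaving out libraries does not remove these differences. Without GF replicate 1 and CG replicate 3, the remaining CG libraries carry Y-linked signal and the remaining GF libraries do not. Y-linked signal and group cannot be told apart in that setting. Fewer cells of a type and less RNA per cell cannot be told apart in bulk RNA. Mitochondrial genes took up 17.8% of the mRNA TPM in all GF libraries, against 8.17% to 11.8% in CG libraries. Totals of mRNA TPM were 795583 to 845526 for GF and 793723 to 815901 for CG, and the number of reads behind a TPM is unknown.

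On the deposited scale, proteasome mRNA as a whole stood at overlapping levels in both groups. The 43 genes added up to 3504, 3553 and 3742 TPM in GF libraries, against 3518, 3492 and 3701 TPM in CG libraries, which is 0.421% to 0.447% of the mRNA TPM in GF libraries, against 0.430% to 0.454% in CG libraries. Relative to the median tested gene of each library, the sum was 222, 219 and 216 times that gene in GF libraries, against 182, 178 and 185 times in CG libraries, higher in every GF library. A filter of 1 TPM in 3 or more libraries left 41 of the 43 genes, which were compared by limma on log2(TPM + 1) within a fit of all 14641 mRNA genes that passed it. The testis-specific core subunit PSMA8 was listed at 0 in all 6 libraries, and PSMC3IP, a cofactor of meiotic recombination, stood at 0.53 to 0.61 TPM in GF libraries, against 0.32 to 1.30 TPM in CG libraries. Both were left untested. The median member stood at 73.5 TPM and the median of all tested genes at 18.4 TPM. Between libraries of a group, the median coefficient of variation was 11.2% (GF) and 7.63% (CG) over the tested members and 19.4% (GF) and 13.3% (CG) over all tested genes. PSMB2 and PSMB4 varied least among GF libraries, at 0.707% and 0.833%, and PSME1 and PSMB8 most, at 38.5% and 37.9%.

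Single subunits lay on either side of equality. At an adjusted p under 0.05 (limma, Benjamini-Hochberg over all tested genes), 3 of the 41 members rose in GF pigs, all of them subunits of the 19S cap, and 0 fell. Among all tested genes 1.08% rose and 4.93% fell. At an unadjusted p under 0.05, 8 members were higher and 7 lower in GF pigs, against 4.31% and 26.6% of all tested genes. These member counts were 14 and 1 after centring and 9 and 2 with mitochondrial genes out of the scaling. In 8 members every GF library lay above every CG library and in 9 every GF library lay below, against 5.42% and 32.8% of all tested genes. Fold changes are on the log2(TPM + 1) scale, GF over CG, which understates those of low genes. Their median was -0.06 over the members and -0.23 over all tested genes, a gap of 0.17. After centring each library on its median these medians were 0.18 and 0.01, and with mitochondrial genes out of the scaling 0.03 and -0.14, with the same gap. On the deposited scale 17 members had a positive and 24 a negative log2 fold change, against 32 and 9 after centring. Of the 9 members that lay lower in every GF library, PSMB1, PSMC4 and PSMD2 then turned positive, and the other 6 stayed negative, while the 8 that lay higher stayed positive. On the deposited scale no member passed the fold threshold of the study, a log2 change of at least 1, which 2.89% of all tested genes passed together with the adjusted p. After centring PSMD4 passed both, with a log2 fold change of 1.09 (limma adjusted p = 0.014).

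**Figure D1:**
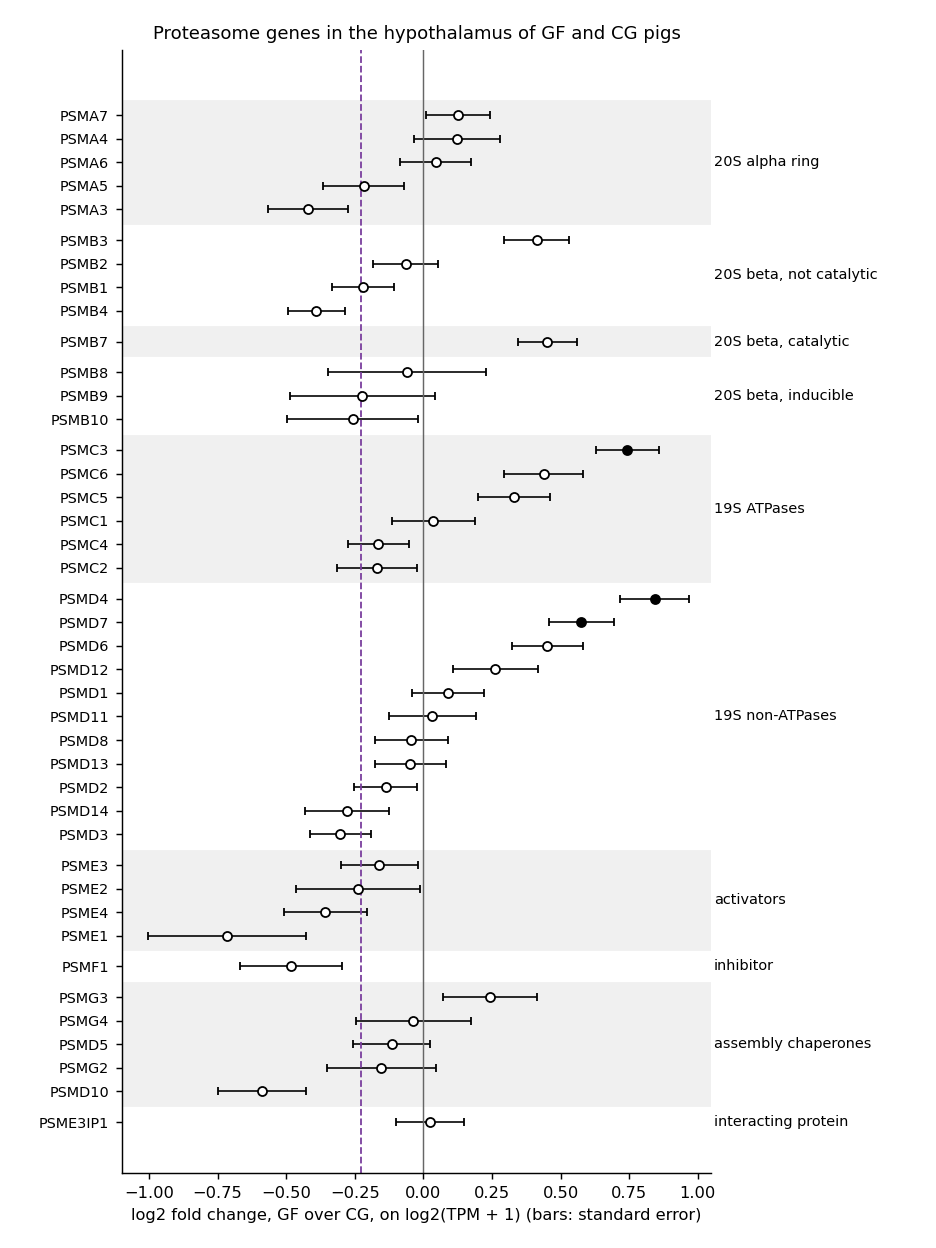
Log2 fold change (GF over CG) of the 41 tested members, grouped by role, with standard errors as bars. Filled points passed an adjusted p under 0.05, and the dashed line marks the median of all 14641 tested genes at -0.23. The filled points PSMC3, PSMD4 and PSMD7 all lie in the 19S groups, and all 4 activators lie below 0 (after centring PSME2 and PSME3 lie above it).

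The counts rest on few libraries and on the scaling. The 3 rises were 0 when any library other than GF replicate 2 was left out, and 4 without GF replicate 2. They were also 0 with GF replicate 1 and CG replicate 3 left out together, a setting chosen after seeing the data, and 2 without the filter on low values. With CG replicates 1 and 2 left out the count was also 0, but CG is then the 1 library CG replicate 3, assumed to vary like the GF libraries. With each library centred on its median, the members' calls were 6 higher (PSMB7, PSMC6 and PSMD6 besides the 3) and 0 lower, and those of all genes 265 higher and 129 lower, against 158 and 722 on the deposited scale. With mitochondrial genes out of the scaling, the members had the same 3 rises.

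The largest difference among the members was that of PSMD4, a ubiquitin receptor of the 19S cap, on chromosome 4 from 97994060 to 98004727 (Sscrofa11.1). It stood at 155.83, 186.92 and 161.92 TPM in GF libraries, against 99.22, 86.57 and 93.81 TPM in CG libraries. All GF libraries lay above all CG libraries, and the means were 168 ± 16.5 TPM and 93.2 ± 6.35 TPM (SD, n = 3 each), a ratio of 1.80. PSMD4 rose with a log2 fold change of 0.84 (standard error 0.12, limma adjusted p = 0.029). With 1 library left out, the log2 fold change was 0.77 to 0.90 and the adjusted p 0.025 to 0.15.

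PSMC3 is one of the ATPases that unfold the substrate and lies on chromosome 2 from 15185482 to 15191189. Its levels were 94.69, 94.14 and 86.45 TPM in GF libraries, against 57.70, 50.11 and 55.47 TPM in CG libraries. Again no library of one group reached the other, and PSMC3 rose with a log2 fold change of 0.74 (standard error 0.12, limma adjusted p = 0.029). PSMD7, which pairs with the deubiquitinase PSMD14 in the lid of the cap, lies on chromosome 6 from 17047420 to 17057170. Its levels were 106.06, 99.56 and 94.46 TPM in GF libraries, against 63.82, 63.53 and 73.24 TPM in CG libraries. It rose with a log2 fold change of 0.58 (standard error 0.12, limma adjusted p = 0.046). With 1 library left out, the adjusted p was 0.031 to 0.15 for PSMC3 and 0.044 to 0.16 for PSMD7, and each of these fits gave a positive fold change.

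The other 14 subunits of the cap did not pass. Of the 6 ATPases, PSMC5 stood at 229 ± 13.2 TPM in GF libraries, against 182 ± 20.2 TPM in CG libraries, and PSMC6 at 74.7 ± 10.8 TPM and 54.6 ± 4.18 TPM (SD, n = 3), both without overlap but short of the threshold (limma adjusted p = 0.14 and 0.093). After centring PSMC6 passed (limma adjusted p = 0.048). The ATPase PSMC4 lay lower in every GF library on the deposited scale (log2 fold change 0.08 after centring), at 42.4 ± 1.23 TPM in GF libraries, against 47.6 ± 1.67 TPM in CG libraries. PSMC1 stood at 108 ± 6.33 TPM and 106 ± 19.2 TPM and PSMC2 at 84.4 ± 12.5 TPM and 94.5 ± 7.16 TPM in the same order, with overlap.

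Of the 11 non-ATPase subunits, 9 did not pass. PSMD6, which sits in the lid beside PSMD7, stood at 55.15, 51.55 and 63.41 TPM in GF libraries, against 42.32, 38.46 and 42.39 TPM in CG libraries (log2 fold change 0.45, limma adjusted p = 0.073, and 0.038 after centring). PSMD3, another lid subunit, stood lower in every GF library, at 106 ± 5.54 TPM in GF libraries, against 131 ± 6.58 TPM in CG libraries (log2 fold change -0.30, limma adjusted p = 0.12, and -0.06 after centring). The most abundant member was PSMD2, a large scaffold of the base, with a log2 fold change of -0.14, and 0.11 after centring. It stood at 277.03, 282.56 and 291.64 TPM in GF libraries, against 300.69, 307.69 and 328.39 TPM in CG libraries. For PSMD1, the other large scaffold, the groups overlapped at 81.6 ± 9.15 TPM and 76.4 ± 4.79 TPM. They also overlapped for the deubiquitinase PSMD14, at 38.0 ± 6.37 TPM in GF libraries, against 46.0 ± 3.66 TPM in CG libraries, and for PSMD8, PSMD11, PSMD12 and PSMD13.

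**Figure D2:**
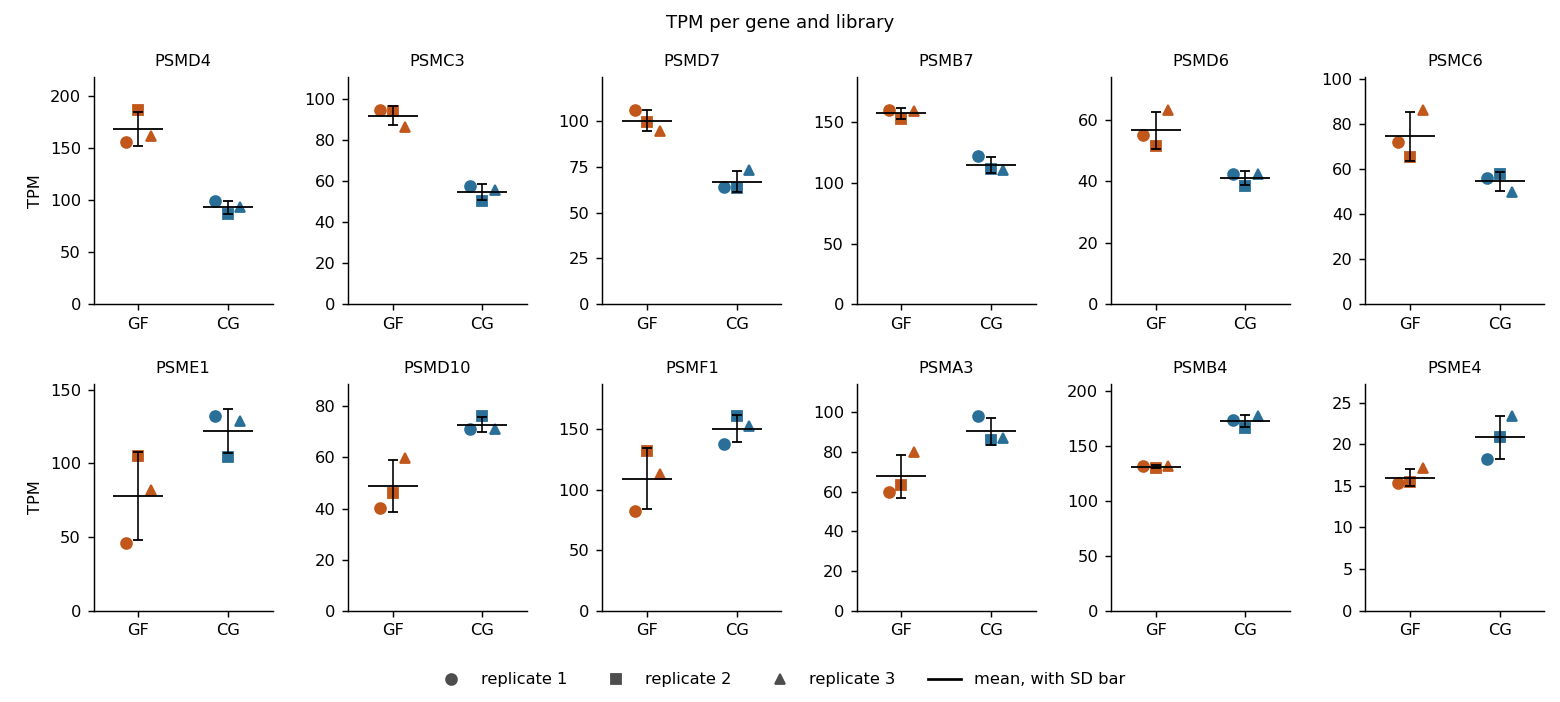
TPM of 12 members in each library, GF left and CG right, with the mean and SD as black lines. PSMD4, PSMC3, PSMD7, PSMB7, PSMD6 and PSMC6 in the upper row are higher in every GF library, and in the lower row every member but PSME1 is lower in every GF library.

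Among the core subunits, 0 of 13 tested genes passed. PSMB7, the catalytic subunit with trypsin-like activity, on chromosome 1 from 265172257 to 265235389, came nearest, at 160.23, 152.14 and 159.13 TPM in GF libraries, against 121.93, 111.49 and 110.59 TPM in CG libraries. All GF libraries were higher, with a log2 fold change of 0.45 (standard error 0.11, limma adjusted p = 0.054). It passed without GF replicate 2 (adjusted p = 0.046) and after centring (adjusted p = 0.035). The name rule found no gene called PSMB5 or PSMB6, the other constitutive catalytic subunits, so their levels are not given.

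The structural PSMB subunits pointed both ways. PSMB3 stood higher in all GF libraries, at 128 ± 7.84 TPM in GF libraries, against 95.7 ± 7.65 TPM in CG libraries (limma adjusted p = 0.074). PSMB4 lies on chromosome 4 from 97835544 to 97837909, and its levels were 131.52, 129.90 and 131.98 TPM in GF libraries, against 173.26, 166.47 and 176.96 TPM in CG libraries. It was lower in every GF library, with a log2 fold change of -0.39 (standard error 0.10, limma adjusted p = 0.065), and -0.15 after centring. PSMB1 was also lower in each GF library (log2 fold change 0.02 after centring), at 201 ± 10.4 TPM and 234 ± 8.14 TPM, while PSMB2 overlapped at 33.1 ± 0.234 TPM and 34.8 ± 2.42 TPM (GF and CG pigs, SD, n = 3).

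PSMB4 and PSMD4 are neighbours, with 156150 bases between them, and their differences had opposite signs. Their ratio within a library, which no scaling can alter, was 1.18, 1.44 and 1.23 in GF pigs and 0.573, 0.520 and 0.530 in CG pigs. The pair was chosen after the values were seen, so the ratio was not tested.

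Of the 5 tested subunits of the outer ring, 0 passed. PSMA3 stood at 59.85, 63.29 and 79.85 TPM in GF libraries, against 97.99, 85.99 and 86.97 TPM in CG libraries, lower in all GF libraries (log2 fold change -0.42, limma adjusted p = 0.11, and -0.18 after centring). The other 4 tested PSMA genes overlapped between the groups. PSMA7 was the most abundant of them at 222 ± 13.7 TPM in GF libraries, against 204 ± 10.8 TPM in CG libraries, followed by PSMA6 at 139 ± 11.5 TPM and 135 ± 13.5 TPM. PSMA5 stood at 41.3 ± 5.56 TPM and 48.1 ± 5.24 TPM and PSMA4 at 22.7 ± 2.70 TPM and 20.8 ± 2.37 TPM. The core takes up its PSMA proteins in equal numbers, whereas the mRNA levels of these 5 genes spanned 21.7 to 213 TPM as means over the 6 libraries.

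Cap and core mRNA were also set against each other within a library. The 17 members of the cap added up to 1859, 1789 and 1933 TPM in GF libraries, against 1657, 1615 and 1795 TPM in CG libraries, and the 14 members of the core to 1184, 1178 and 1228 TPM and to 1207, 1195 and 1232 TPM. These 14 are not the full constitutive core. They include the 3 inducible subunits and PSMA8, listed at 0, but not PSMA1, PSMA2, PSMB5 or PSMB6. The ratio of cap to core was 1.57, 1.52 and 1.57 in GF pigs and 1.37, 1.35 and 1.46 in CG pigs, higher in each GF library. Without PSMD4, PSMC3 and PSMD7 the ratios were 1.27, 1.20 and 1.30 in GF pigs and 1.19, 1.18 and 1.28 in CG pigs, and the groups overlapped. Those genes were left out because they had risen in these same libraries, so a narrower gap was fixed in advance. The ratios are sums over members and were not tested.

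**Figure D3:**
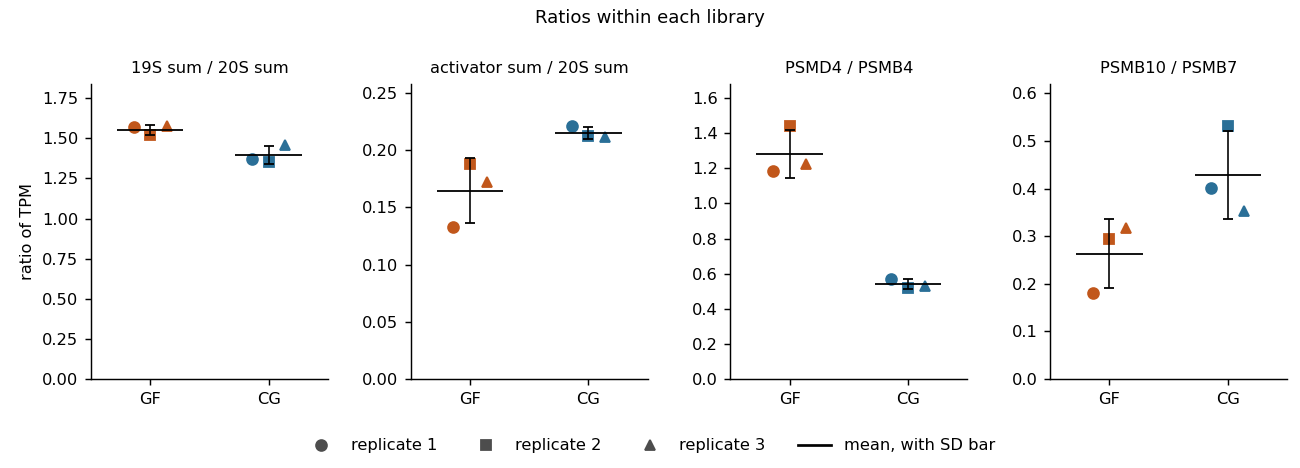
Ratios of TPM within each library, GF left and CG right, with mean and SD. The cap-to-core ratio and PSMD4 over PSMB4 are higher in every GF library, while the activator-to-core ratio and PSMB10 over PSMB7 are lower in every GF library.

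The alternative regulators of the core all had negative fold changes (PSME2 and PSME3 positive ones after centring), and 0 of them passed the test. PSME1 and PSME2 form PA28, the interferon-inducible cap that opens the core without ubiquitin, and lie 3958 bases apart on chromosome 7. PSME1 stood at 45.70, 104.85 and 82.32 TPM in GF libraries, against 132.16, 104.57 and 128.87 TPM in CG libraries. GF replicate 1 was the lowest and GF replicate 2 lay at the level of CG replicate 2, so the groups overlapped (log2 fold change -0.72, standard error 0.29, limma adjusted p = 0.14). Without GF replicate 1 the log2 fold change was -0.38. PSME2 stood at 26.64, 42.59 and 35.39 TPM in GF libraries, against 46.32, 46.27 and 31.13 TPM in CG libraries, with CG replicate 3 below GF replicates 2 and 3 (log2 fold change -0.24, and 0.01 after centring).

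PSME3, the nuclear relative of PA28, stood at 69.64, 59.02 and 76.91 TPM in GF libraries, against 69.82, 82.30 and 77.15 TPM in CG libraries, with overlap (log2 fold change -0.16, and 0.08 after centring). PSME4, the large activator PA200, was low throughout, at 15.38, 15.42 and 17.15 TPM in GF libraries, against 18.22, 20.92 and 23.37 TPM in CG libraries, without overlap (log2 fold change -0.36, limma adjusted p = 0.16, and -0.11 after centring). PSMF1, a proteasome inhibitor, lies on chromosome 17 from 34118324 to 34164723. Its levels were 82.33, 132.38 and 113.22 TPM in GF libraries, against 138.19, 160.86 and 152.85 TPM in CG libraries, again without overlap (log2 fold change -0.48, limma adjusted p = 0.13). The log2 fold change was -0.24 after centring and -0.29 without GF replicate 1. The 4 activators together stood at 0.133, 0.188 and 0.172 of the core sum in GF pigs and at 0.221, 0.213 and 0.212 in CG pigs. Without PSME1 these fractions were 0.0943, 0.0993 and 0.105 in GF pigs and 0.111, 0.125 and 0.107 in CG pigs, still without overlap.

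The inducible subunits overlapped between the groups, and the fold changes of PSMB8 and PSMB9 turned positive after centring. PSMB8 stood at 7.23, 14.24 and 8.34 TPM in GF libraries, against 12.41, 10.79 and 7.41 TPM in CG libraries (log2 fold change -0.06, limma adjusted p = 0.91, and 0.18 after centring). PSMB9, its neighbour in the MHC region of chromosome 7 with 10466 bases between them, stood at 1.38, 2.13 and 1.43 TPM in GF libraries, against 2.62, 2.64 and 1.18 TPM in CG libraries (log2 fold change -0.22, limma adjusted p = 0.60, and 0.02 after centring). PSMB10 stood at 29.04, 44.65 and 50.37 TPM in GF libraries, against 48.99, 59.18 and 38.98 TPM in CG libraries (log2 fold change -0.26, limma adjusted p = 0.50). CG replicate 3 was the CG library with the largest pituitary marker sum and without Y-linked signal. Set against CG replicate 3 alone, the log2 fold changes were 0.33 for PSMB8, 0.27 for PSMB9 and 0.05 for PSMB10. The log2 fold change of PSMB10 stayed negative with any single library left out and after centring (-0.01).

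All 3 genes were lowest in GF replicate 1 among GF libraries and in CG replicate 3 among CG libraries, as were PSME2 and the microglial markers. The 9 microglial markers in the sheet added up to 425, 1419 and 1036 TPM in GF libraries, against 1315, 1265 and 556 TPM in CG libraries, with none listed at 0 in all libraries. Of these 9 markers 0 rose and 0 fell. The sum of the 6 astrocyte markers was also lowest in GF replicate 1 and CG replicate 3 within their groups. It was 2081, 3094 and 3082 TPM in GF libraries, against 3390, 3225 and 2735 TPM in CG libraries. The lymphocyte marker sum had its lowest values in the same libraries, but the neuron, oligodendrocyte and endothelial sums did not. The part of RNA from microglia or other cell types in the inducible subunits was not tested. PSMB10 replaces PSMB7 in the immunoproteasome, and their ratio was 0.181, 0.293 and 0.317 in GF pigs and 0.402, 0.531 and 0.352 in CG pigs. Every GF library had the lower ratio (exact permutation test, two-sided, p = 0.10, the lowest value possible with 3 libraries a group). PSMB7 was higher in every GF library, while PSMB10 itself overlapped between the groups.

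**Figure D4:**
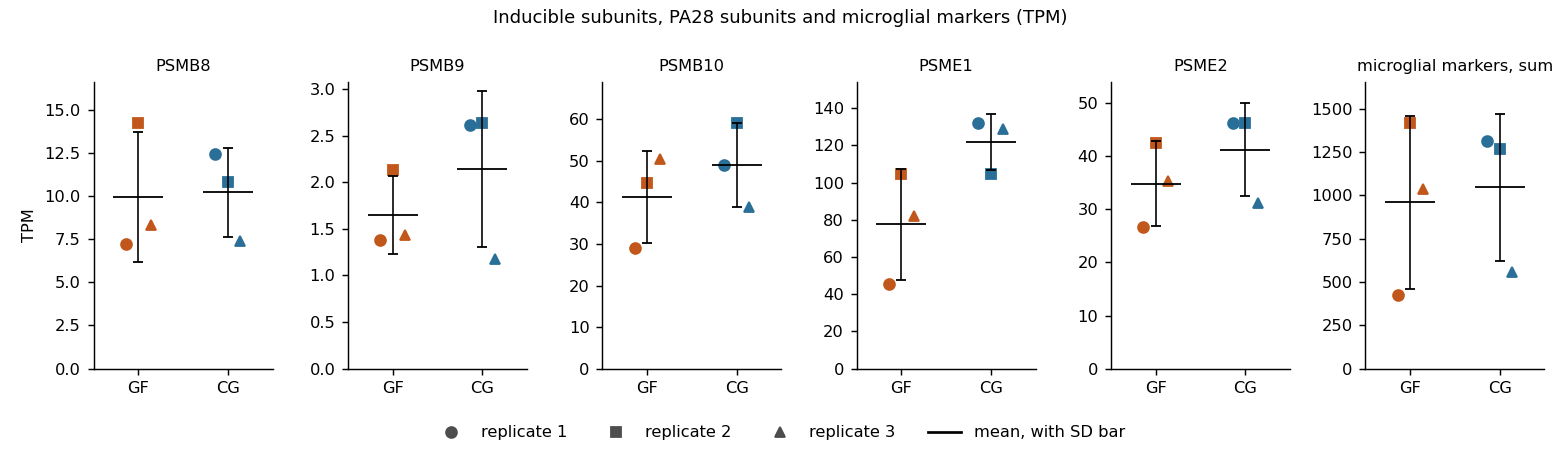
TPM of the inducible subunits PSMB8, PSMB9 and PSMB10, of the PA28 genes PSME1 and PSME2 and the sum of 9 microglial markers, by library, GF left and CG right. The groups overlap in every panel, and the microglial sum is lowest in GF replicate 1 at 425 TPM and in CG replicate 3 at 556 TPM.

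Of the 5 assembly chaperones in the sheet, PSMD10 (gankyrin), which helps to build the base of the cap, was the one without overlap. It stood at 40.30, 46.14 and 59.88 TPM in GF libraries, against 71.10, 76.17 and 71.30 TPM in CG libraries. All GF libraries were lower, with a log2 fold change of -0.59 (standard error 0.16, limma adjusted p = 0.069), and -0.34 after centring. PSMD10 lies on the X chromosome, and its level in CG replicate 3, without Y-linked signal, lay between those in the other CG libraries. The base chaperone PSMD5 stood at 37.4 ± 4.86 TPM and 40.5 ± 2.19 TPM and the core chaperones PSMG2 at 8.05 ± 1.75 TPM and 8.96 ± 0.839 TPM, PSMG3 at 36.7 ± 4.61 TPM and 31.0 ± 5.25 TPM and PSMG4 at 31.0 ± 4.13 TPM and 32.3 ± 8.03 TPM, in GF and CG pigs and with overlap. The interacting protein PSME3IP1 stood at 74.0 ± 6.51 TPM and 72.7 ± 5.36 TPM.

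Single transcripts showed larger differences than the gene sums. Of the 128 member transcripts, 78 were tested in a fit over 27945 transcripts, and 6 rose and 4 fell in GF pigs at an adjusted p under 0.05 (limma). Over all tested transcripts 2.29% rose and 5.25% fell. The 10 transcripts came from 7 genes. With GF replicate 1 and CG replicate 3 left out, no rise and 1 fall were left. Rises numbered 1 to 3 without any single library other than CG replicate 2 (4 without it). Falls numbered 3 without GF replicate 1, 5 without GF replicate 2, 2 without CG replicate 1 and 1 without any other single library. TPM of transcripts that share exons are estimates of how reads divide between them, so a split between transcripts is less certain than the gene sum.

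The widest split was that of PSMA7, whose gene sum overlapped between the groups. Its transcript ENSSSCT00000039834 stood at 0.63, 0 and 0 TPM in GF libraries, against 30.59, 51.66 and 23.72 TPM in CG libraries, and it fell (log2 fold change -4.87, standard error 0.35, limma adjusted p = 0.0014). It made up 0.266%, 0% and 0% of PSMA7 TPM in GF libraries, against 15.5%, 26.2% and 11.0% in CG pigs. The only other PSMA7 transcript, ENSSSCT00000044737, stood at 235.92, 220.76 and 209.32 TPM in GF libraries, against 167.18, 145.31 and 192.28 TPM in CG libraries.

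PSMC3 had transcripts that changed in opposite directions. ENSSSCT00000060329 stood at 83.72, 85.25 and 76.68 TPM in GF libraries, against 39.42, 30.43 and 35.55 TPM in CG libraries, and it rose (log2 fold change 1.20, limma adjusted p = 0.0087). ENSSSCT00000091007 stood at 7.95, 6.53 and 5.49 TPM in GF libraries, against 14.51, 16.55 and 18.78 TPM in CG libraries, and it fell (log2 fold change -1.21, limma adjusted p = 0.022). The share of the first in PSMC3 TPM was 88.4%, 90.6% and 88.7% in GF pigs and 68.3%, 60.7% and 64.1% in CG pigs. The share of the second was 8.40%, 6.94% and 6.35% in GF pigs and 25.1%, 33.0% and 33.9% in CG pigs. PSMC3 was the 1 member with transcripts past a log2 change of 1 in both directions and no overlap in either.

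PSMD2 did not pass as a gene, and its transcript ENSSSCT00000059320 rose, at 137.76, 122.49 and 136.05 TPM in GF libraries against 35.53, 18.16 and 61.44 TPM in CG libraries (log2 fold change 1.92, limma adjusted p = 0.036). This transcript held 49.7%, 43.4% and 46.7% of PSMD2 TPM in GF libraries, against 11.8%, 5.90% and 18.7% in CG pigs. In PSMA6, ENSSSCT00000079719 fell, at 18.35, 11.20 and 17.69 TPM in GF libraries, against 34.37, 52.76 and 46.87 TPM in CG libraries (log2 fold change -1.46, limma adjusted p = 0.022), as did the scarce ENSSSCT00000066254, at 0.29 to 1.07 TPM and 2.73 to 2.98 TPM. The PSMA6 gene sum overlapped between the groups.

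In PSMD4 the rise was shared by transcripts. ENSSSCT00000007264, at 73.59, 98.32 and 70.01 TPM in GF libraries, against 45.14, 25.03 and 42.55 TPM in CG libraries, and ENSSSCT00000041757, at 35.45, 34.67 and 38.55 TPM and 13.18, 16.57 and 9.43 TPM, both rose (limma adjusted p = 0.047 and 0.016). The remaining rises were the single transcript of PSMD7 and ENSSSCT00000079508 of PSME3IP1, at 12.2 to 14.7 TPM in GF libraries, against 3.84 to 7.75 TPM in CG libraries.

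**Figure D5:**
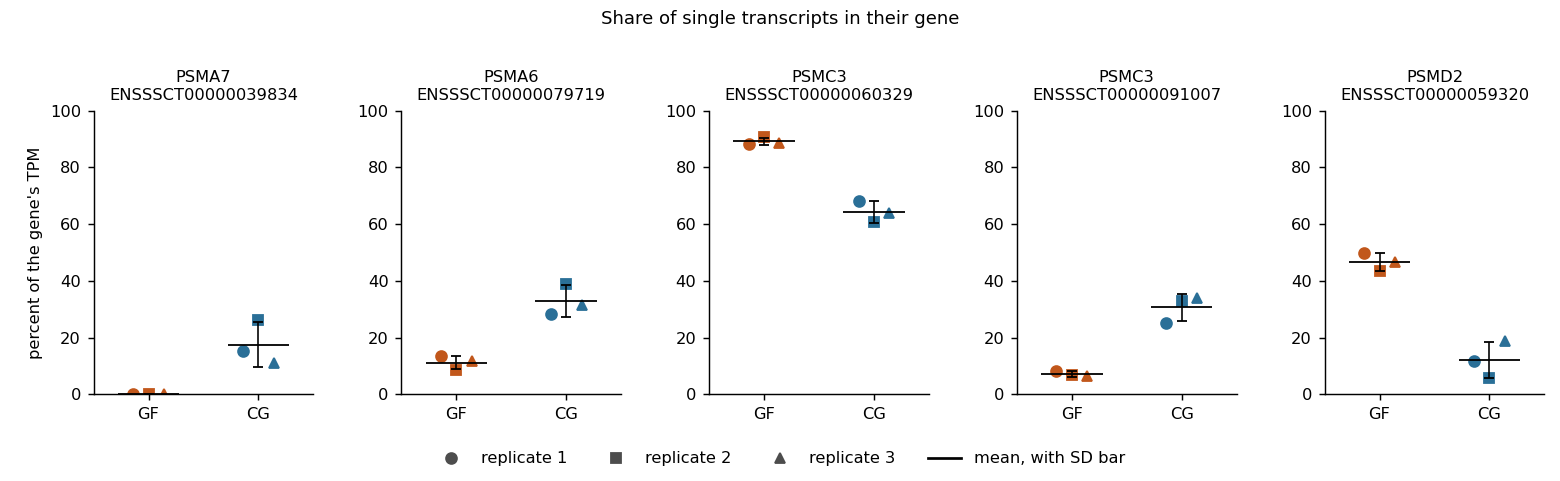
Share of 5 transcripts in the TPM of their gene (percent), by library, GF left and CG right, with mean and SD. The groups are apart in each panel, with the PSMA7 transcript at no more than 0.266% in the GF group, against 11.0% to 26.2% in the CG group.

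The rest of the ubiquitin-proteasome pathway was covered by 6 lists of 56 genes, of which 49 were tested. By limma 0 rose and 0 fell at an adjusted p under 0.05, and at an unadjusted p under 0.05 there were 3 higher and 12 lower, beside 4.31% and 26.6% of all tested genes. These counts were 5 and 1 after centring and 3 and 6 with mitochondrial genes out of the scaling. No overlap between the groups was found for 2 higher and 18 lower genes, beside 5.42% and 32.8% of all tested genes. The median log2 fold change of these 49 genes was -0.24, beside -0.23 over all tested genes. Values of single genes of these lists are on the deposited scale, where 10639 of the 14641 tested genes had a negative log2 fold change.

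The ubiquitin precursor UBB, the most abundant gene of these lists, stood at 2098, 2249 and 2292 TPM in GF libraries, against 3310, 3350 and 4247 TPM in CG libraries (log2 fold change -0.71, limma adjusted p = 0.081). UBA1, the enzyme that activates ubiquitin, stood at 234, 210 and 238 TPM in GF libraries, against 287, 282 and 309 TPM in CG libraries (limma adjusted p = 0.094), and the conjugating enzyme UBE2C at 1.74 to 1.91 TPM and 3.67 to 7.88 TPM (limma adjusted p = 0.062). All GF libraries were lower for these 3 genes, and also for the conjugating enzyme UBE2D1, at 25.9 to 34.8 TPM in GF libraries, against 39.5 to 44.3 TPM in CG libraries (limma adjusted p = 0.084). The conjugating enzyme UBE2K stood higher, at 42.8 to 68.8 TPM in GF libraries, against 35.9 to 39.5 TPM in CG libraries (limma adjusted p = 0.089).

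NFE2L1, the transcription factor that drives proteasome genes in human and mouse cells when the proteasome is blocked, stood at 171, 165 and 190 TPM in GF libraries, against 192, 202 and 231 TPM in CG libraries. The groups did not overlap (limma adjusted p = 0.23), and the log2 fold change of NFE2L1, -0.25, was near the median of -0.23 over all tested genes. Its relative NFE2L2 stood at 31.8 to 49.2 TPM and 52.3 to 65.6 TPM in the same order (limma adjusted p = 0.14). NGLY1, the deglycosylase that NFE2L1 needs to become active, stood at 21.0 to 28.2 TPM and 25.6 to 33.5 TPM in the same order. Among shuttle factors, which carry ubiquitinated proteins to the proteasome, UBQLN2 stood at 114 to 143 TPM in GF libraries, against 167 to 178 TPM in CG libraries (limma adjusted p = 0.076). NPLOC4, a cofactor of the unfoldase VCP, stood at 34.9 to 39.7 TPM in GF libraries, against 48.1 to 62.1 TPM in CG libraries (limma adjusted p = 0.078).

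Of the proteasome-bound enzymes, the deubiquitinase UCHL5 stood at 39.2 to 60.4 TPM in GF libraries, against 35.7 to 39.7 TPM in CG libraries, and the thioredoxin-like TXNL1 at 58.1 to 84.8 TPM and 85.3 to 101 TPM. USP14, another deubiquitinase of the cap, overlapped at 67.0 to 106 TPM in GF libraries, against 90.2 to 106 TPM in CG libraries. ADRM1, the ubiquitin receptor that binds UCHL5, stood at 45.0 to 51.8 TPM and 50.1 to 51.7 TPM. The proteasome scaffold ECPAS stood at 49.2 to 65.8 TPM in GF libraries, against 71.2 to 71.5 TPM in CG libraries (log2 fold change -0.27, limma adjusted p = 0.24), and AKIRIN2, which brings proteasomes into the nucleus of human cells, at 62.5 to 70.1 TPM and 65.9 to 89.3 TPM. Among genes linked to the immunoproteasome, the peptide transporter TAP1 stood at 10.6, 12.4 and 8.21 TPM in GF libraries, against 17.1, 15.6 and 13.9 TPM in CG libraries (limma adjusted p = 0.11), and B2M, the light chain of MHC class I, at 472 to 867 TPM and 848 to 1320 TPM (limma adjusted p = 0.12). STAT2, a mediator of interferon signals, stood at 43.5 to 51.1 TPM in GF libraries, against 55.9 to 64.7 TPM in CG libraries (limma adjusted p = 0.13).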

How the data were processed

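Long RNA of the hypothalamus was analysed as deposited, in TPM per annotated mRNA transcript, which the authors made from rRNA-depleted paired-end reads aligned to Sscrofa11.1. For that step the paper names TopHat, Cufflinks and HTSeq and the labels name fastp, HISAT and RSEM. Small RNA and lncRNA values were not used here. Depth is unknown, so no counting error is given.

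TPM were added up per gene, and log2(TPM + 1) of genes with at least 1 TPM in at least 3 libraries was compared with limma-trend (limma 3.58.1, R 4.3.3), without covariates, with Benjamini-Hochberg adjustment over all 14641 genes or 27945 transcripts. The fit was tested on simulated data. A gene was said to rise or fall at an adjusted p below 0.05. Sums and plots were made in Python 3.11.15 (pandas 2.3.3, numpy 2.4.6, scipy 1.17.1, matplotlib 3.10.9). Positions are those of RefSeq on Sscrofa11.1, matched by symbol for 42 members.

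Members and lists were chosen with earlier results of these data known. Values by library are given for catalytic subunits, activators, members that passed and the 5 largest differences in each direction, and values for transcripts that passed and up to 3 other genes per list with the smallest p. For 1 such gene the values are not reported here. PSMB3, PSMC5, PSMC6, PSMD3, UBA1 and UBE2K and the levels of the other members were added after values were seen. Alternatives were another pseudocount (0.1), no filter or one of 5 TPM, each library left out, a replicate block, other scalings and pairs of libraries left out.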

Additional observations from a re-analysis of the deposited data

How the results depend on the processing

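The count of 423 mRNA genes past both thresholds was 880 without the fold threshold, 192 without the low-value filter, 184 with mitochondrial genes out of the scaling, 219 after centring, 40 without CG replicates 1 and 2 (which leaves 1 CG library, assumed to vary like the GF libraries), 31 without GF replicate 1 and CG replicate 3, and 22 to 717 with 1 library left out. The 3 proteasome genes that rose were 6 after centring and 0 with the fold threshold (PSMD4 passes it after centring), 0 without CG replicates 1 and 2, 0 without GF replicate 1 and CG replicate 3, and 0 to 4 with 1 library left out, while 0 fell in every setting run. The 6 transcripts that rose were 2 without the filter, 10 after centring, 0 in either fit without 2 libraries and 1 to 4 with 1 left out, and the 4 that fell were 1 in either fit without 2 libraries and 1 to 5 with 1 left out. Of the other pathway genes, 1 rose after centring, 0 to 2 rose with 1 library left out, and 0 fell in every setting run.

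The deviations of same-numbered GF and CG libraries had correlations of -0.02, 0.06 and -0.01 across genes, and those of differently numbered libraries -0.10 to 0.08. With so few libraries these values cannot tell whether the numbers pair pigs. With the replicate number as a block, 35 mRNA genes, 0 proteasome genes and 1 transcript in each direction passed.

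After centring, the log2 fold change of PSMB8 was 0.18, of PSMB9 0.021, of PSME2 0.0057 and of PSME3 0.083. With mitochondrial genes out of the scaling that of PSMB8 was 0.031. Without CG replicates 1 and 2 the values were 0.33 for PSMB8, 0.27 for PSMB9, 0.047 for PSMB10 and 0.13 for PSME2. With 1 library left out PSMB8 ranged between -0.33 and 0.12. The cause of these changes was not tested.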

Other observations

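The sheet leaves 3 further gene IDs without a name that the Ensembl name table calls PSMA1, PSMA2 and PSMD9, and they were outside the rule. PSMA1, a subunit of the outer ring (ENSSSCG00000013391), stood at 45.6, 42.2 and 52.6 TPM in GF libraries, against 52.0, 54.3 and 61.8 TPM in CG libraries (log2 fold change -0.26, limma adjusted p = 0.24). PSMA2, of the same ring (ENSSSCG00000039582), stood at 26.0, 32.2 and 29.5 TPM in GF libraries, against 26.8, 26.5 and 27.3 TPM in CG libraries (log2 fold change 0.11, limma adjusted p = 0.60). PSMD9, an assembly chaperone of the base (ENSSSCG00000036483), stood at 25.1, 22.8 and 27.6 TPM in GF libraries, against 33.2, 38.6 and 31.2 TPM in CG libraries. It was lower in all GF libraries on the deposited scale (log2 fold change -0.43, limma adjusted p = 0.097). The base chaperone PSMD10 was also lower in all GF libraries, while the base chaperone PSMD5 overlapped between the groups. With PSMA1 and PSMA2 counted in the core, the ratio of cap to core was 1.48, 1.43 and 1.48 in GF libraries and 1.29, 1.27 and 1.36 in CG libraries.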
